A study of Homo sapiens with 2 samples.

Results

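MiR-15a, miR-15b, miR-16, miR-195 and miR-497 were followed in a small RNA sequencing comparison of 2 human leukemia cell lines. All names in the deposited table whose stem was one of these 5 miRs were kept, with the prefix, the asterisk, the arm and the copy number removed, which gave 12 of 934 names. K562 is a line derived from a patient with chronic myelogenous leukemia and was cultured without drug. K562/ADM is a stable derivative of K562 that was selected by rising concentrations of adriamycin (ADM), an anthracycline, and was then kept in 1000 ng/mL of it. A small RNA library was made from total RNA of each line, so that there was 1 library per line and no replicate check. Each comparison below therefore concerns this pair of libraries and not the drug treatment as such.

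MiRs of this family are known as repressors of the anti-apoptotic gene BCL2 and of cyclins, including cyclin D1, and so as brakes on the cell cycle and on survival. A miR finds its targets mainly through its seed, bases 2 to 8 from the 5′ end, and each hairpin can yield a guide, the arm that is usually loaded, and a passenger, the other arm, which the names used here mark with an asterisk. The hairpins lie at 3 loci in pairs, and both hairpins of a pair lie within the same host gene. The pair at 13q14 is best known for its deletion in chronic lymphocytic leukemia. No mRNA was measured in this series, so that the targets could not be examined.

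The sequences are shown because the guides of all 3 loci carry 1 seed that their passenger arms lack. They were taken from RefSeq (GRCh38.p14), where 11 of the 12 names were matched, and the capitals mark the seed. The guides are listed first, in the order of their reads in K562.
miR-16: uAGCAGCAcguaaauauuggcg
miR-15a: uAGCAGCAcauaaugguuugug
miR-15b: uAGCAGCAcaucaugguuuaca
miR-195: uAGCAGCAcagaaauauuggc
miR-497: cAGCAGCAcacugugguuugu
miR-15a*: cAGGCCAUauugugcugccuca
miR-16-1*: cCAGUAUUaacugugcugcuga
miR-15b*: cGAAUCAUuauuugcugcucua
miR-16-2*: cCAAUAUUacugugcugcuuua
miR-195*: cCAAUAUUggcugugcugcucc
miR-497*: cAAACCACacugugguguuaga
From base 2 on, the 5 guides were identical over 8 bases, the whole seed and 1 base beyond it. MiR-15a and miR-15b differed by an edit distance of 4 and miR-16 and miR-195 by 3, where each substituted, inserted or missing base counts 1. Whether reads were shared between such close names in the mapping was not tested. Among the passenger arms only miR-16-2* and miR-195* had a seed in common, and they came from different loci.

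On GRCh37, where the RefSeq hairpins were placed by exact match, MIR15A spans chromosome 13 from 50623255 to 50623337 and MIR16-1 from 50623109 to 50623197, both on the minus strand. They are 57 bases apart within the lncRNA gene DLEU2, MIR16-1 in an intron and MIR15A overlapping exons of some annotated transcripts. MIR15B spans chromosome 3 from 160122376 to 160122473 and MIR16-2 from 160122533 to 160122613, on the plus strand with 59 bases between them, in an intron of SMC4, a gene for a condensin subunit. MIR195 spans chromosome 17 from 6920934 to 6921020 and MIR497 from 6921230 to 6921341, also on the minus strand and 209 bases apart, both overlapping an annotated exon of the lncRNA gene MIR497HG. A protein-coding gene on the minus strand also spans the pair of chromosome 3. The pair of chromosome 17 also lies in an intron of a further lncRNA gene on the minus strand. In the RefSeq table of hairpins 0 others were found within 50 kb of these 6. MIR16-1 and MIR16-2 give the same guide, so that a read of miR-16 cannot be assigned to 13q14 or 3q25, while their passenger arms can be told apart.

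The libraries held 7677738 reads of listed miRs in K562 and 6895193 in K562/ADM. The deposited values are read counts divided by a size factor, and whole reads were recovered from them. Each ratio is K562/ADM over K562, after median-of-ratios scaling, with an exact 95% interval that covers counting error only. Calls were made where the ratio reached 2-fold in either direction with an interval that left out 1. As a check of the cell type, which cannot tell K562 from K562/ADM, 8 miRs of blood cells were looked up. MiR-150 and miR-155 were not listed. The other 6 had between 1712 and 351692 reads in K562 and between 1246 and 507475 in K562/ADM. In contrast, the 5 miRs chosen for liver, muscle, neurons or epithelium had at most 10 and 22 reads. They were miR-122, miR-1, miR-133a, miR-124 and miR-205, and they do not stand for all miRs of such tissues. MiR-9, which was not among them, counted 7976 reads in the parental line and 17882 in the resistant one.

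The members stood unequally by locus. The names of 17p13 had ratios between 1.63 and 4.29, and miR-195 and miR-497 among them had the largest called ratios. The names of 13q14 had ratios between 1.56 and 2.01, a range that also holds miR-497* of 17p13. Those of 3q25 lay between 0.596 and 1.14, where miR-15b moved above 1 under upper-quartile scaling. Of the 12 names 3 were called higher, miR-195, miR-497 and miR-16-1*, against 11.1% of all 934 names, and 0 were called lower, against 15.6%. In either direction 3 of 12 were called, close to the 26.8% of all names. With the interval alone, 5 names were higher and 1 was lower, against 19.9% and 23.9% of all names. Over the 10 members whose reads summed to at least 10, the median log2 ratio was 0.68, beside -0.08 over all 604 such names. With no read minimum and a floor of 3 reads the medians were 0.72 for the members and 0.29 for all names.

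**Figure D1:**
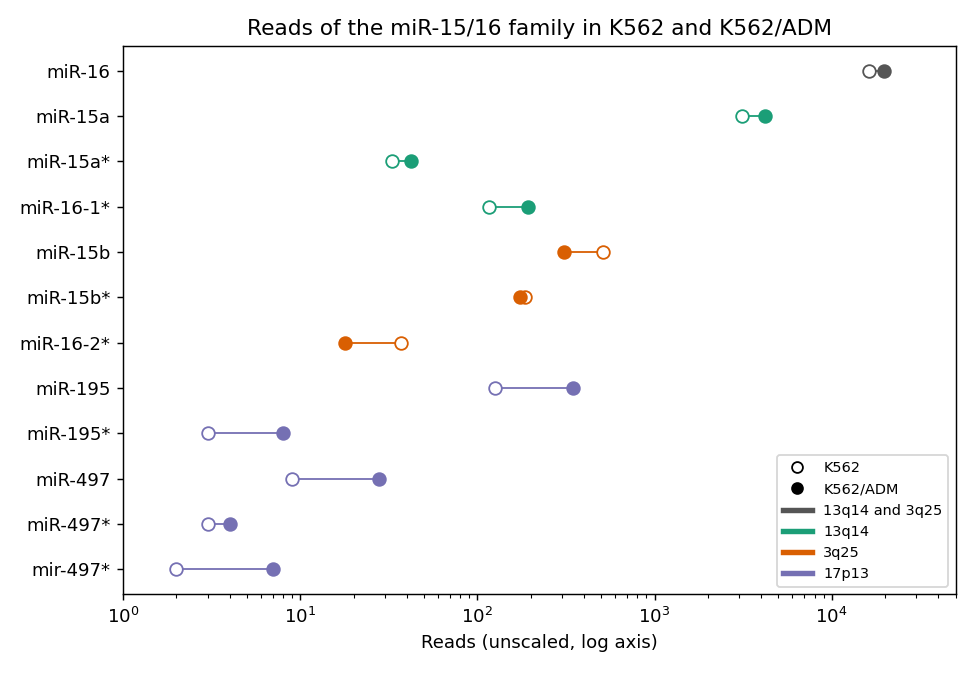
Unscaled reads (x axis, log scale) of the 12 names (y axis), open circles for K562 and filled circles for K562/ADM, coloured by locus. MiR-16 had the most reads in both libraries, and the 3 names of 3q25 are those with fewer reads in K562/ADM before scaling. After median-of-ratios scaling the ratio intervals of miR-15b* and miR-16-2* hold 1.

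The family as a whole was led by miR-16. Its reads numbered 16322 in the parental and 19707 in the resistant line, or 79.7% (95% interval 79.1 to 80.3) and 78.6% (78.1 to 79.1) of the reads of the family. Its ratio was 1.48 (1.45 to 1.51), which passed 2-fold under upper-quartile scaling only, at 2.47. All 12 names together took 0.267% of the miR reads in K562 (0.263 to 0.270) and 0.363% in K562/ADM (0.359 to 0.368), with Clopper-Pearson intervals. The ratio of the summed reads was 1.50 (1.47 to 1.53), or 1.58 (1.51 to 1.64) without miR-16. Neither reached 2-fold.

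The order of the guides differed in 1 place. In K562 it ran from miR-16 through miR-15a with 3129 reads, miR-15b with 513 and miR-195 with 125 to miR-497 with 9. In K562/ADM miR-195, with 345 reads, stood beside miR-15b, with 309, and these neighbours did not differ beyond counting error, since miR-195 held 52.8% of their reads (48.8 to 56.6). All other neighbours in either order did. The mature guides are 21 or 22 bases long.

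At 13q14, miR-15a and miR-15a* were not called, except under upper-quartile scaling, where their ratios were 2.77 and 2.61. For miR-15a, 3129 reads in K562 and 4228 in K562/ADM gave a ratio of 1.65 (95% interval 1.58 to 1.73). MiR-15a*, its passenger arm, had 33 and 42 reads and a ratio of 1.56 (0.964 to 2.54), an interval that holds 1. MiR-16-1*, the passenger arm of the neighbouring hairpin, had 117 and 192 reads and a ratio of 2.01 (1.59 to 2.55), just past the 2-fold limit. This call was lost under 3 of the 5 other scalings, with ratios between 1.83 and 1.87. Together the 3 names of this locus other than miR-16 had 3279 and 4462 reads and a ratio of 1.67 (1.59 to 1.74).

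At 3q25 the guide and both passenger arms did not share a direction. The reads of miR-15b went from 513 to 309, a ratio of 0.738 (95% interval 0.638 to 0.851), which was above 1 under upper-quartile scaling only, at 1.23. MiR-16-2* had 37 and 18 reads and a ratio of 0.596 (0.319 to 1.07). MiR-15b* had 186 and 173 reads and a ratio of 1.14 (0.921 to 1.41). After median-of-ratios scaling the intervals of both passenger arms held 1. That of miR-16-2* left out 1 under total reads (0.290 to 0.976), without 14q32 (0.297 to 0.998) and with miR-425 (0.294 to 0.988). That of miR-15b* left out 1 under upper-quartile scaling only (1.54 to 2.36). The locus without miR-16 summed to 736 and 500 reads, a ratio of 0.832 (0.741 to 0.933).

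At 17p13, miR-195 and miR-497 were higher in K562/ADM, and both stayed called under the 5 other scalings. MiR-195 rose from 125 to 345 reads, a ratio of 3.38 (95% interval 2.75 to 4.18), and it was the one member whose whole interval lay above 2-fold. MiR-497 had 9 and 28 reads and a ratio of 3.81 (1.75 to 9.18), known far less closely. The other 3 names of the locus had at most 8 reads in a library and were not called, although miR-195* and mir-497* were under upper-quartile scaling, with ratios of 5.47 and 7.17. MiR-195* had 3 and 8 reads, miR-497* 3 and 4, and mir-497*, for which neither the labels nor the methods name an arm, 2 and 7. All 5 names had a ratio above 1 under each of the 6 scalings, each of which shifts all ratios alike. After median-of-ratios scaling the intervals of miR-195* (0.784 to 19.1), miR-497* (0.276 to 11.1) and mir-497* (0.816 to 42.3) held 1. The sum of the 5 names, 142 and 392 reads, gave 3.38 (2.78 to 4.13). Of these reads 125 and 345 were of miR-195, so the sum mainly repeats its ratio.

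**Figure D2:**
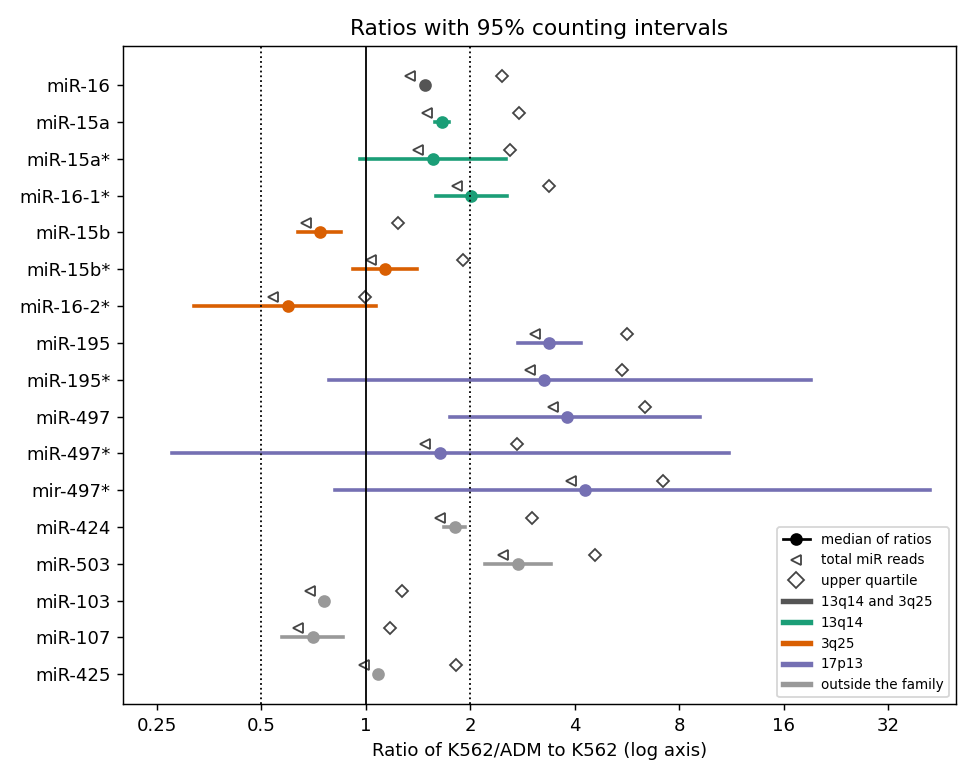
Ratio of K562/ADM to K562 (x axis, log scale) of the 12 names, 4 related miRs and miR-425 (y axis), with points for median-of-ratios scaling, bars for 95% counting intervals and open symbols for the scalings that gave the lowest and the highest ratios. The solid line marks equality and the dotted lines 2-fold. The points of the 17p13 names lie right of the solid line, although the bars of miR-195*, miR-497* and mir-497* cross it. MiR-15b and miR-16-2* lie left of the solid line except in the upper-quartile value of miR-15b.

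The scaling cancels when names of the same library are set against each other, so the loci were also compared by the odds ratio of their reads, with an exact 95% interval. Over 11 such contrasts 9 intervals left out 1, but the contrasts reuse the same reads and are not independent. The share of intervals that leave out 1 was not computed for like pairs of other miRs or loci. At this depth intervals are narrow for many miRs, and 43.8% of all 934 names had a ratio whose interval left out 1, so the size of each odds ratio is given beside it.

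MiR-15a gained on miR-15b. There were 6.10 reads of miR-15a for each read of miR-15b in K562 and 13.7 in K562/ADM, an odds ratio of 2.24 (95% interval 1.93 to 2.61). The passenger arms of the other hairpin pair moved the same way, with 3.16 reads of miR-16-1* for each read of miR-16-2* in K562 and 10.7 in K562/ADM, an odds ratio of 3.36 (1.77 to 6.58). For miR-15a* against miR-15b* the odds ratio was 1.37 (0.805 to 2.34), an interval that holds both 1 and the value for the guides. Summed without miR-16, 13q14 against 3q25 gave 2.003 (1.77 to 2.27).

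Reads of miR-16-1* made up 76.0% (68.4 to 82.5) of the passenger reads of miR-16 in K562 and 91.4% (86.8 to 94.8) in K562/ADM. The passenger reads came from both loci in each library, and the larger part was from 13q14. What share of the guide came from each locus was not measured.

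MiR-16 itself, the guide that 13q14 and 3q25 share, stood between the guides of these loci. MiR-15a against miR-16 had an odds ratio of 1.12 (95% interval 1.06 to 1.18), close to even, while miR-15b fell against miR-16 to 0.499 (0.431 to 0.577). MiR-195 rose against miR-16, from 0.766% to 1.75% of its reads, an odds ratio of 2.29 (1.86 to 2.83), and miR-497 had an odds ratio of 2.58 (1.18 to 6.21).

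As a sum of reads, 17p13 gained on both other loci. MiR-195 made up 125 of its 142 reads in K562 and 345 of 392 in K562/ADM. Against 3q25 the odds ratio of the summed reads was 4.06 (95% interval 3.23 to 5.12) and against 13q14 it was 2.03 (1.66 to 2.49). With the names with an asterisk alone the value against 13q14 was 1.52 (0.617 to 4.12). This interval holds both 1 and 2.03, so it does not show whether the arms differ. Within the locus, miR-195 and miR-497 kept a like proportion of 13.9 and 12.3 reads of miR-195 for each of miR-497, with an odds ratio of 0.887 (0.358 to 2.001). This interval holds a 2-fold shift in either direction.

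**Figure D3:**
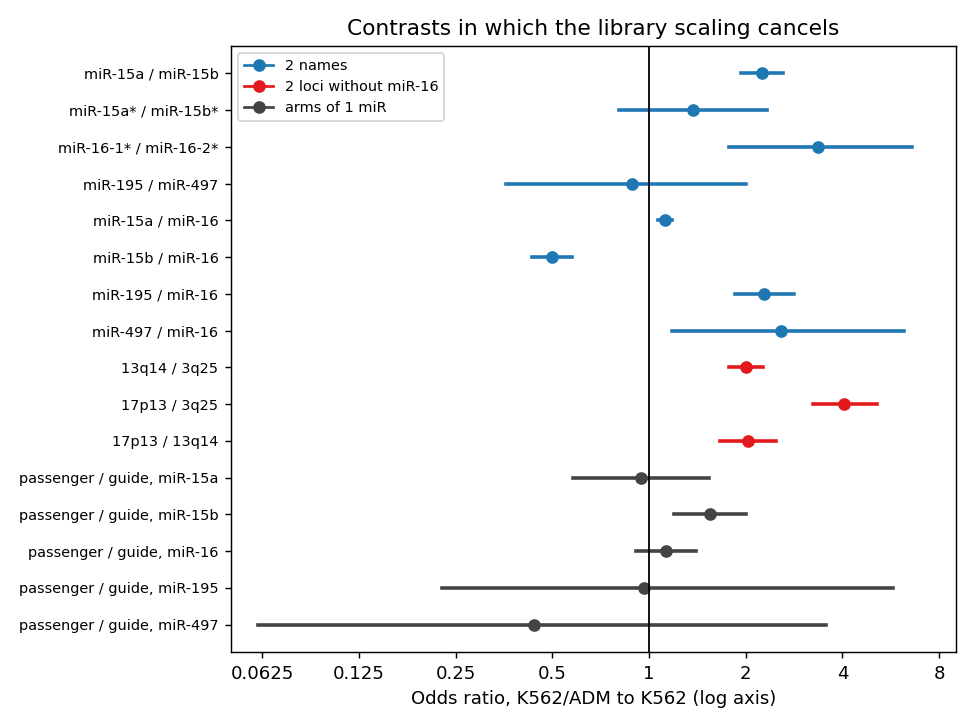
Odds ratios of reads between K562/ADM and K562 (x axis, log scale) with exact 95% counting intervals, for pairs of names in blue, pairs of loci without miR-16 in red and passenger against guide arms in grey. Points right of the line mark a gain of the first item in K562/ADM; the 3 pairs of loci lie at 2.003, 4.06 and 2.03, and of the arms only miR-15b has an interval clear of the line.

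For 4 of the 5 miRs the odds ratio of the passenger against the guide arm had an interval that held 1. The passenger arm made up 1.04% (95% interval 0.719 to 1.46) of the reads of miR-15a in K562 and 0.984% (0.710 to 1.33) in K562/ADM. For miR-16, with both passenger arms summed, it was 0.935% (0.793 to 1.09) and 1.05% (0.917 to 1.21), an odds ratio of 1.13 (0.912 to 1.40). For miR-195 it was 2.34% (0.486 to 6.70) and 2.27% (0.983 to 4.42). For miR-497, with 3 passenger reads in K562 and 4 in K562/ADM, it was 25% (5.49 to 57.2) and 12.5% (3.51 to 29.0). With mir-497* added to the passenger reads it was 35.7% (12.8 to 64.9) and 28.2% (15.0 to 44.9). These intervals do not show that the shares were equal.

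The passenger arm of miR-15b held 26.6% (95% interval 23.4 to 30.1) of its reads in K562 and 35.9% (31.6 to 40.4) in K562/ADM, an odds ratio of 1.54 (1.19 to 1.999). For comparison, hairpins outside the family with at least 50 reads of each arm were taken, a choice made after the values had been seen. Of 54 such hairpins 57.4% had an interval that left out 1 in either direction. Their median odds ratio was 0.791, with quartiles of 0.591 and 1.10. The value of miR-15b lay above the upper quartile.

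**Figure D4:**
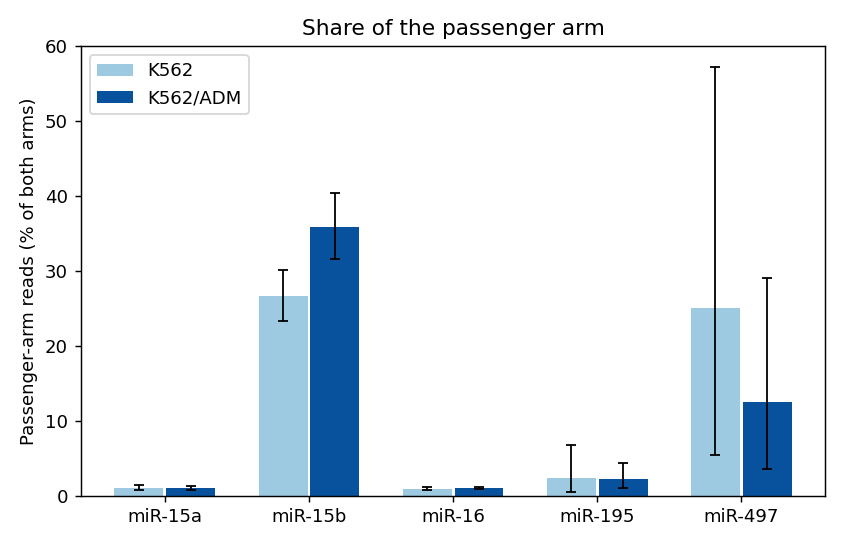
Passenger-arm reads as a percentage of the reads of both arms (y axis) for the 5 miRs (x axis) in K562 and K562/ADM, with both passenger arms of miR-16 summed and bars for exact 95% intervals. MiR-15b had 26.6% and 35.9%, while miR-15a, miR-16 and miR-195 had under 3% in either library.

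The seed of the family was found in 7 of 2370 mature sequences of RefSeq, the 5 guides, miR-424 and 1 that is not among the names analysed here. MiR-424 (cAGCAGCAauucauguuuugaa), which is encoded on chromosome X with miR-503, had 1322 and 1945 reads, a ratio of 1.80 (95% interval 1.68 to 1.93). It lay between miR-15a and the 17p13 guides and was not called, except under upper-quartile scaling, at 3.02 (2.81 to 3.24).

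A wider group is related to miR-15 through a 5′ end close to this seed. The list used for this group also held miR-103-2* and miR-424*, asterisk names of the other arm, to which this likeness does not refer. Of the 6 listed names of that group outside the family, 1 was called higher, against 11.1% of all names, and 0 lower, against 15.6%. The rows mir-503*, with 2 and 6 reads, and mir-103-1*, with 1 and 0, were not in the list of this group and were not called. MiR-503 (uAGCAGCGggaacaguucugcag), whose seed ends in another base, rose from 123 to 275 reads, a ratio of 2.74 (95% interval 2.21 to 3.41). MiR-103 (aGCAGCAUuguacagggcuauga) and miR-107 (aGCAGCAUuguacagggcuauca), in which the motif GCAGCA is shifted by 1 base toward the 5′ end, had ratios of 0.758 (0.740 to 0.777) and 0.704 (0.575 to 0.859), both above 1 under upper-quartile scaling only. MiR-103 had 16666 and 10317 reads, beside 16322 and 19707 of miR-16. The asterisk names miR-103-2* and miR-424* had 30 and 61 reads in K562 and 24 and 31 in K562/ADM.

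Ratios as large as that of miR-16 were not rare. Of the 169 names whose reads summed to at least 1000, 38 had a higher ratio than miR-16 and 28 a higher one than miR-15a, while 64 had a lower one than miR-15b. By the distance of their log2 ratios, the names outside the family nearest to miR-16 were miR-128 (1.48), miR-194 (1.49) and miR-301a (1.50). Those nearest to miR-15a were miR-146b-5p (1.64), miR-9* (1.62) and miR-362-5p (1.58), and those nearest to miR-15b were miR-93 (0.737), miR-548d-5p (0.733) and let-7g (0.733). This likeness is over 2 libraries only.

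MiR-425, the reference of the study's PCR, had a ratio of 1.09 (95% interval 1.07 to 1.10). With miR-425 set to equal values, the ratio of miR-16 was 1.36, that of miR-15a 1.52, that of miR-15b 0.679 and that of miR-195 3.11. The study's PCR also measured miR-16, which the authors chose as a negative control. Their text gives no PCR value for miR-16, so that none could be set beside 1.36.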

How the data were processed

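One small RNA library of each cell line was sequenced. The authors removed sequences seen once, trimmed the adapter and mapped the rest with Bowtie in miRanalyzer to miRBase 16. The authors then divided the counts by DESeq size factors to give the deposited signal. CASAVA 1.7.0 and hg18 are named in the submitters' processing notes. The deposited table also holds the authors' fold changes and p-values, which were not used.

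The smallest value above 0 in a column was taken as 1 read, and division by it gave whole reads for 100% of the values, with a tolerance of 0.001. A count model such as that of edgeR could not be fitted to 1 library per line, so no p-value was computed. Intervals are exact (Clopper-Pearson for shares and ratios, conditional for odds ratios) and cover counting error only. PCR copies are not independent molecules, and the omission of sequences seen once is not modelled. Names were matched to RefSeq by the usual arm of each miR. Asterisk names were read as the passenger arms, except mir-497*.

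The members and lists were chosen with earlier results of these data known. The named miRs are all members, the related miRs with a similar 5′ end, asterisk names of these, miR-425 and the miRs of the cell type check. Named too are the 3 nearest in ratio to each of miR-16, miR-15a and miR-15b with at least 1000 reads. MiR-9 was added beside the cell type check after its reads had been seen. Other scalings (total reads, TMM, upper quartile, without 14q32 and miR-425), read minimums, call rules, a pseudocount and other intervals were tried. The procedure was also run on simulated counts with counting error alone, which cannot test it under noise between libraries. Python 3.11.15, scipy 1.17.1, pandas 2.3.3, R 4.3.3 and edgeR 4.0.16 (scaling factors only) were used.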

Additional observations from a re-analysis of the deposited data

How the results depend on the processing

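Total reads, miR-425 and the median of ratios without 14q32 lowered every log2 ratio by 0.10 to 0.14, and upper-quartile scaling raised it by 0.74, with TMM close to the median of ratios. Of all 934 names, 104 were higher and 146 lower, 41.6% of the calls higher, and under upper-quartile scaling 223 and 95, or 70.1%. The number of members called higher was then 8 in place of 3 and that of the 6 related names 2 in place of 1 (mir-503*, outside that list, was also called, at 6.15), the summed family ratio was 2.51, the median of the members 1.43 and that of all names 0.66. MiR-15b, miR-103, miR-103-2*, miR-107 and miR-424* changed direction there, to 1.23, 1.27, 1.64, 1.18 and 1.04. By 2-fold alone 5 members were higher and with the whole interval past 2-fold 1. By the interval alone 5 were higher and 1 lower. Without miR-378, the most abundant miR, the family took 0.540% and 0.774% of the reads. Among the 16 odds ratios only that of 17p13 against 13q14, 1.52 with the asterisk names alone, changed its side of the interval. Outside the contrasts between loci the alternative run for each odds ratio was 0.5 added to each count, with a log-normal interval. For the arms of miR-497, mir-497* was also added to the passenger reads, which gave 0.712 (0.165 to 3.33). The shift under each scaling follows from its construction. No paired analysis was possible because each line has 1 library. The noise between libraries is not known.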
